A study of Mus musculus with 75 samples.

Results

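Lipolysis genes encode the enzymes that release fatty acids from stored or circulating triglyceride, together with the proteins that activate or restrain those enzymes. The 9 genes followed here are Pnpla2, Pnpla3, Lipe, Abhd5, G0s2, Lpl, Pde3b, Aqp7 and Lipa. They were taken from the array annotation by symbol, and all 9 were present among 19147 measured genes. Together they had 13 of the 38385 probe sets. Where a gene had several, the one brightest on average in that tissue is given.

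Levels were read on 75 arrays of 1 colour and custom design, which held RNA of 39 livers and of 36 samples of epididymal fat, the depot beside the testis. The animals were male mice of C57BL/6 background, either CB1R-/-, knockouts of the cannabinoid receptor 1 gene Cnr1, or WT littermates. Fat supplied 13% of the energy in the chow and 59.4% in the high-fat diet, and feeding began at 2 months of age and lasted 14 weeks. Every mouse was gavaged with methylcellulose vehicle alone or with AM251, an inverse agonist of that receptor, at 10 mg per kg late in the afternoon of 2 successive days, and was killed for tissue on the morning of day 3, at 10. The combinations of diet, genotype and treatment give 8 groups in each tissue. Groups held 5 arrays except high-fat CB1R-/- vehicle liver (4), high-fat CB1R-/- vehicle fat (3) and chow CB1R-/- AM251 fat (3). The labels number the samples but name no litter or batch, so the p-values measure the spread between these arrays.

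Fat cells hold triglyceride in a droplet that is opened in steps. Adipose triglyceride lipase (Pnpla2) removes the first fatty acid with the help of its activator Abhd5 and is held back by G0s2, and hormone-sensitive lipase (Lipe) cleaves the diglyceride that follows. Insulin restrains the cascade through the phosphodiesterase Pde3b, which breaks down cyclic AMP, and the glycerol that is left leaves the cell through the channel aquaporin 7 (Aqp7). Lipoprotein lipase (Lpl) works outside the cell on circulating triglyceride, lysosomal acid lipase (Lipa) works inside lysosomes, and Pnpla3 is a relative of Pnpla2 on the droplet whose mRNA is known to follow feeding.

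The labelled tissues carried their markers. The mean log2 intensity of 7 hepatocyte genes was 13.5 to 13.8 on liver arrays and 5.77 to 6.90 on fat arrays, and that of 6 adipocyte genes was 13.1 to 13.6 on fat arrays and 5.70 to 6.79 on liver arrays. Adipoq, the adipocyte hormone adiponectin, was at 2.68 to 3.56 on every liver array. In fat, 3 arrays carried more epididymis mRNA than the rest: the mean of 9 epididymis and testis genes was 8.04 on high-fat WT AM251 array 36, 6.97 on high-fat WT vehicle array 3 and 5.79 on high-fat WT AM251 array 37, where the epididymal gene Rnase9 was at 11.29, 8.12 and 6.66, against 3.80 to 5.28 on the other arrays. The list mean of array 37 was close to that of the next array (5.75). The epididymal lipocalin Lcn5 was at 12.99 and 9.54 on arrays 36 and 37, at 7.28 on array 3, which is no higher than on many others, and at 8.29 on high-fat CB1R-/- AM251 array 49. The results of the 9 lipolysis genes in high-fat WT fat are therefore also given without these 3 arrays where that changes a call. Cnr1, the marker genes and the other listed genes were not refitted without them. In liver, chow CB1R-/- vehicle arrays 17 and 15 were least like the others (mean correlation 0.963 and 0.982, against 0.991 for the highest array); no call on a lipolysis gene in liver was lost or gained without both. Cnr1 itself passed as lower in CB1R-/- arrays in none of the genotype contrasts. In fat its mean log2 intensity was 7.24 ± 0.56 (SD, n = 5) in chow WT vehicle and 6.91 ± 0.43 (SD, n = 5) in chow CB1R-/- vehicle arrays, and under AM251 on the high-fat diet it was 0.91 ± 0.32 higher in CB1R-/- arrays (limma adjusted p = 0.0498). In liver the 8 group means lay between 5.72 and 5.95. Which part of the gene its probe sets read relative to the deleted part is not given in the sources used here, so these values check nothing, and genotypes are given as labelled throughout.

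Promoter sequences were matched for 7 of the 9 genes, with 9 windows in all, each from 250 bases before to 50 after the annotated start (RefSeq, GRCm38.p6). The 4 windows printed here belong to genes called between the diets in WT vehicle fat: 3 that were lower (Pnpla2, Pnpla3, G0s2) and 1 that was higher (Lipa) on the high-fat diet. They lie at chr7:141454938-141455237 on the plus strand, chr15:84167566-84167865 on the plus strand, chr1:193273139-193273438 on the minus strand and chr19:34527425-34527724 on the minus strand. Each is written 5′ to 3′ in the direction of transcription, and capitals mark matches of either strand to the motifs that the next paragraph names.
Pnpla2: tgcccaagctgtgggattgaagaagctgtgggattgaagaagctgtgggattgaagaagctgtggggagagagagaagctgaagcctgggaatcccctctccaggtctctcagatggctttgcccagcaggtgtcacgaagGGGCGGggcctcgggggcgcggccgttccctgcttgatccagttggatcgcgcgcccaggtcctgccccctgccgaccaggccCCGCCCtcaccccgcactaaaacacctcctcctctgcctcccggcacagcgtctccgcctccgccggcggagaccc
Pnpla3: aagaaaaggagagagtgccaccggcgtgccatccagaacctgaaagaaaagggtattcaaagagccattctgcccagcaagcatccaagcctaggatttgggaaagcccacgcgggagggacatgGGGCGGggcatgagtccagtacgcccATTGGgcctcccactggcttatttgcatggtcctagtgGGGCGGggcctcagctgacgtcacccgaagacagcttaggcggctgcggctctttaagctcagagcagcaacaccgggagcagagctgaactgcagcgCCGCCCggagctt
G0s2: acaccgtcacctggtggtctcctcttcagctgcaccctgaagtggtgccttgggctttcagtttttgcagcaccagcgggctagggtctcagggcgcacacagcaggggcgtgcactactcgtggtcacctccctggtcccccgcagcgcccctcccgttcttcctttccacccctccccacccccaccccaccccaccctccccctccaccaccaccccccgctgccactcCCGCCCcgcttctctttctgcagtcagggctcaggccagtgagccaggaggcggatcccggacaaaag
Lipa: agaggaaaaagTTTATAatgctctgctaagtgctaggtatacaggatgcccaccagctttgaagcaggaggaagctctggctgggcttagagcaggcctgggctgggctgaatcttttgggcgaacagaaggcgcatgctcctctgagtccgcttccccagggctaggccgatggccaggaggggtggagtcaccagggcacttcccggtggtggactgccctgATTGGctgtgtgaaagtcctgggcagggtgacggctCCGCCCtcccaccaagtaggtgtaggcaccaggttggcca

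The letters searched on both strands were CACGTG (E-box), AGGTCA (nuclear receptor site), a pair of those receptor sites in the same direction with 1 base between, GTAAACA (forkhead site), CCAAT (the CAAT box), the GC box GGGCGG, and for the TATA box the letters TATAAA. The pair contains the single receptor site, and no other motif of the set contains another. Over all 32851 promoter windows of this length, 7.15% held an E-box, 16.3% a receptor site, 0.0396% the pair, 3.65% a forkhead site, 37.4% a CAAT box, 35.7% a GC box and 13.6% a TATA box. The Pnpla2 window held 2 GC boxes, the Pnpla3 window 3 GC boxes and 1 CAAT box, the G0s2 window 1 GC box, and the Lipa window 1 GC box, 1 CAAT box and 1 TATA box. In the Lipa window those TATA box letters span positions -239 to -234 relative to the start. Of the windows not printed, one of the 2 for Lipe held an E-box and 6 GC boxes and the other a forkhead site, the Abhd5 window held 1 receptor site and 1 GC box, and the 2 overlapping Aqp7 windows held 1 and 2 receptor sites. The GC content was 65.3% for Pnpla2, 66.7% for G0s2, 59.7% for Pnpla3 and 59.3% for Lipa, with a median of 52.7% over all windows.

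Lipolysis genes were far brighter in fat than in liver, apart from Lipa, on a scale where all genes together were also higher in fat. In chow WT vehicle arrays all 9 differed between the tissues, 8 higher in fat and 1 lower, where 79.4% of all genes were called (limma, adjusted p under 0.05, Benjamini-Hochberg over all genes). The median fat minus liver difference was 4.47 for the 9 genes and 0.50 for all genes. Aqp7 on its brighter probe set in fat was at 10.19, 10.26, 10.12, 10.09 and 9.94 on fat arrays, and the same probe set in liver had a mean of 3.09 ± 0.10 (SD, n = 5), a difference of 7.03 ± 0.18 (SE, adjusted p = 2.04e-44). That liver signal is at percentile 9.56 of liver probe sets, so the size of the difference is uncertain, and the other Aqp7 probe set gave 4.10. Pnpla2 differed by 4.47 ± 0.12, Lipe by 4.49 ± 0.16, Pnpla3 by 5.40 ± 0.28 and Lpl by 5.01 ± 0.26. These sizes are limited by the dim liver signal of Pnpla3 and by the bright fat signal of Lpl and Pnpla2. The regulators had smaller differences: Pde3b differed by 2.66 ± 0.12, Abhd5 by 1.61 ± 0.14 and G0s2 by 1.45 ± 0.31. Pde3b was dim in liver (percentile 32.5 of liver probe sets), which limits the size of its difference too. Lipa was lower in fat, by -1.17 ± 0.19 (adjusted p = 1.94e-07), with fat arrays at 8.14, 8.27, 8.24, 7.59 and 7.54 and liver arrays at 9.30, 9.19, 8.79, 9.16 and 9.17. Those 2 sets of Lipa arrays did not overlap. In bulk tissue a smaller number of cells of one type and less mRNA per cell cannot be told apart.

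**Figure D1:**
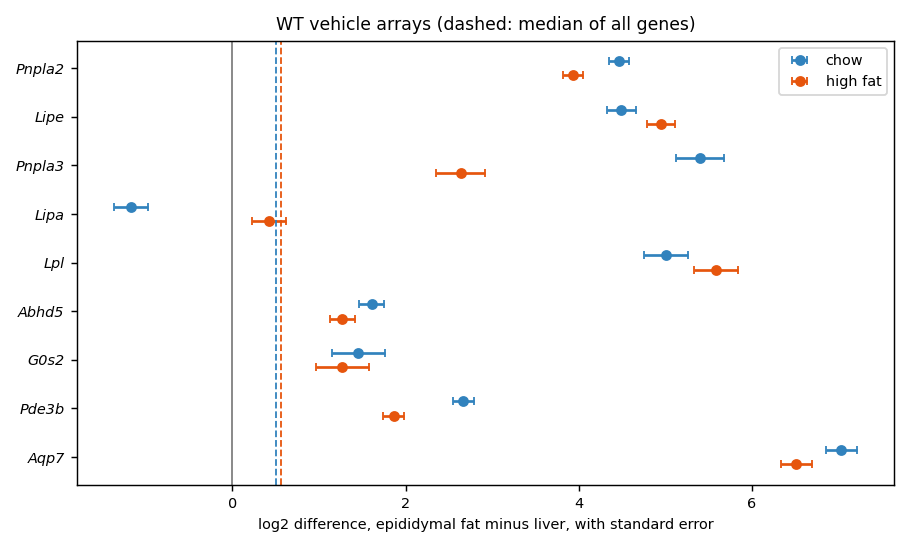
Log2 difference of each lipolysis gene between epididymal fat and liver in WT vehicle arrays on chow (blue, n = 5 and 5) and high fat (orange, n = 5 and 5), with standard errors; dashed lines are the medians of all genes, 0.50 and 0.56. Aqp7 lies at 7.03 and 6.51, and Lipa at -1.17 and 0.42. With each array centred on its median Lipa was at -1.88 and -0.30, so its side on high fat depends on the scale.

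With the high-fat diet the same comparison called all 9 genes as higher in fat, where 82.9% of all genes were called. Pnpla2 was 3.94 ± 0.12 higher in fat, Lipe 4.95 ± 0.16, Lpl 5.58 ± 0.26, Aqp7 6.51 ± 0.18 and Pnpla3 2.64 ± 0.28. Lipa was 0.42 ± 0.19 higher in fat (adjusted p = 0.0418), but with each array centred on its own median, which moves the median difference of all genes from 0.56 to -0.16, it was -0.30 (adjusted p = 0.165). The Lipa call was also lost when just the groups compared were fitted (adjusted p = 0.110), with quantile normalization (0.0616), and without fat array 1 (0.17, adjusted p = 0.387) or 5, or liver array 1, 3, 4 or 5 (0.0529 to 0.0767). The centring also left G0s2 at 0.56 on high fat (adjusted p = 0.0954) in place of 1.27 ± 0.31, and placed the 8 genes that were higher in fat on chow between 0.74 and 6.32. A second Lipe probe set was dim in both tissues (means of 3.60 in fat and 3.77 in liver) and gave -0.13 on chow and -0.0751 on high fat, neither past the threshold. The other 2 Lpl probe sets gave 6.33 and 6.65 on chow.

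The effect of the diet differed between the tissues for some lipolysis genes. The high-fat minus chow difference of WT vehicle arrays was itself compared between fat and liver, and 4 of 9 genes passed, 1 with a higher and 3 with a lower value in fat, where 14.2% of all genes were called. The difference of effects was -0.53 ± 0.17 for Pnpla2 (adjusted p = 0.0216), -2.77 ± 0.40 for Pnpla3 (7.83e-07), -0.80 ± 0.17 for Pde3b (0.000496) and 1.59 ± 0.27 for Lipa (2.29e-05). For Pnpla3 the effect was -1.88 in fat and 0.89 in liver. The Pnpla2 call was lost without liver high-fat array 5 (-0.43, adjusted p = 0.0719), liver chow array 1 (0.0633) or liver chow array 4 (0.0531). The AM251 effect on the high-fat diet, compared between fat and liver in the same way, passed for 0 of 9 genes (1.72% of all genes). At an unadjusted p under 0.05 limma gave 1 of the 9 and 2591 of all genes. Aqp7 came closest, at 0.67 ± 0.26 (adjusted p = 0.208), and was called without fat AM251 array 34 (0.86, adjusted p = 0.0449) or with the mean of its probe sets (0.77, adjusted p = 0.0418).

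In epididymal fat of WT mice the high-fat diet lowered the droplet lipase Pnpla2, its inhibitor G0s2, its relative Pnpla3 and the phosphodiesterase Pde3b, and raised the lysosomal lipase Lipa. Of 9 genes, 1 rose and 4 fell, where 24.5% of all genes were called (2321 higher and 2368 lower). The median difference was -0.48 for the 9 genes and 0.02 for all genes. Lipe, Lpl, Abhd5 and Aqp7 did not pass the threshold.

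**Figure D2:**
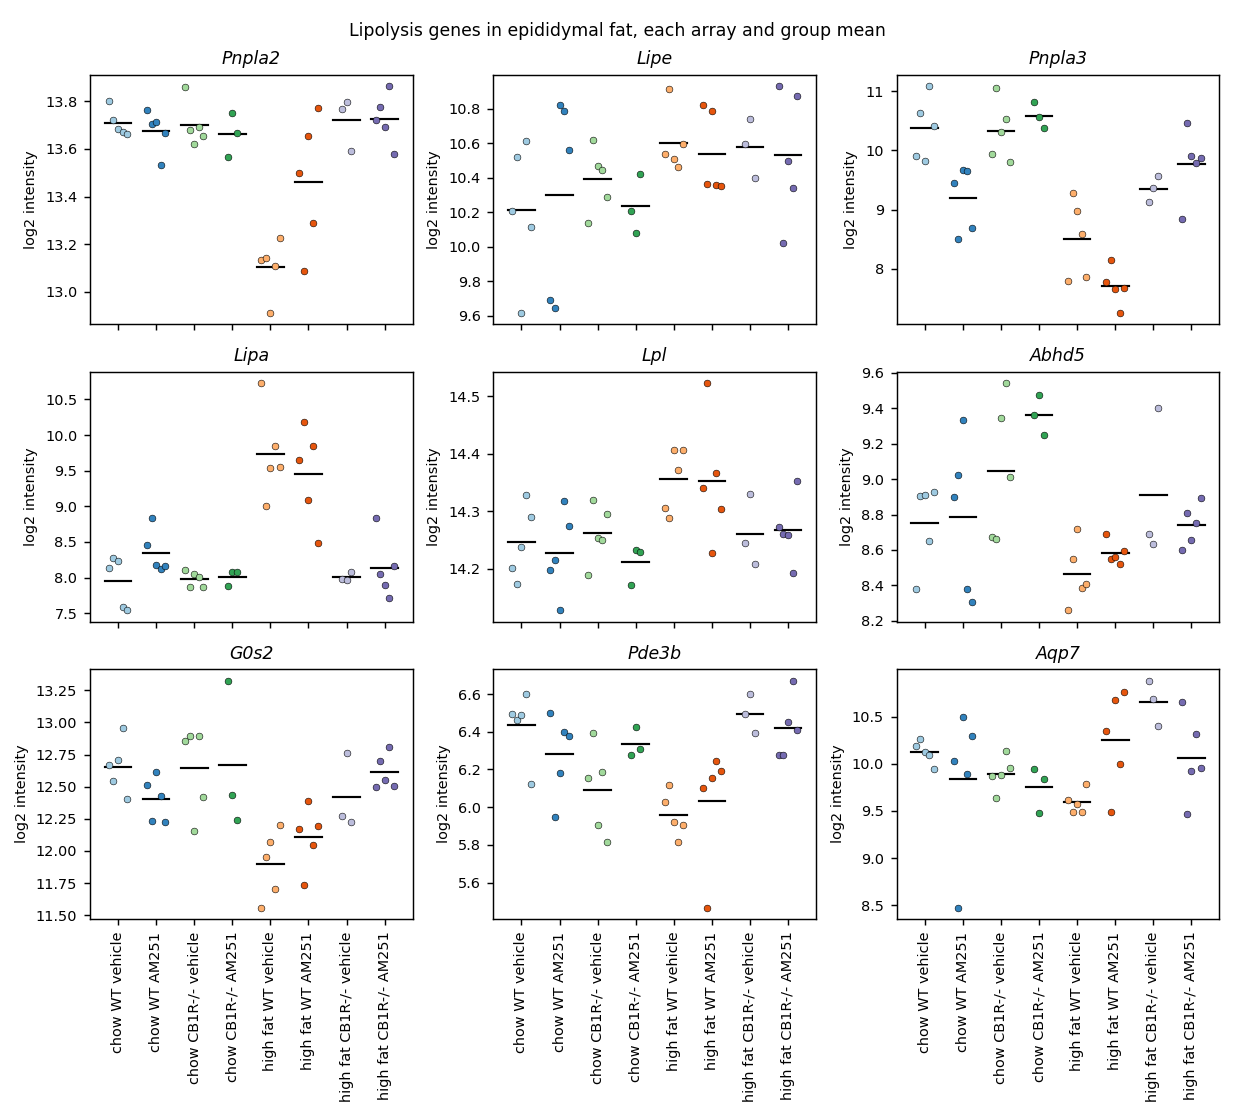
Log2 intensity of the 9 lipolysis genes on each of the 36 epididymal fat arrays (points) with group means (bars), in 8 groups of 3 to 5 arrays. High-fat WT vehicle arrays of Pnpla2 lie between 12.91 and 13.23 and those of the other vehicle groups between 13.59 and 13.86; for Lipa the high-fat WT vehicle arrays lie at 9.01 to 10.73 and overlap the high-fat WT AM251 arrays.

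Pnpla2, which takes the first fatty acid off triglyceride, was at 13.80, 13.72, 13.68, 13.67 and 13.66 on chow WT vehicle arrays. On high-fat WT vehicle arrays it was at 13.14, 13.14, 12.91, 13.11 and 13.23. The groups did not overlap, and Pnpla2 fell by 0.60 ± 0.089 on the log2 scale, to 0.659 of its chow level (adjusted p = 8.39e-06). It was among the brightest probe sets of fat (percentile 99.9), where array signal can compress differences.

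Pnpla3, the relative of Pnpla2, was at 9.91, 10.63, 9.82, 11.09 and 10.42 on chow and at 7.79, 9.28, 8.97, 8.58 and 7.85 on the high-fat diet. The highest high-fat array stayed under the lowest chow array, and Pnpla3 fell by 1.88 ± 0.30, to 0.272 of its chow level (adjusted p = 1.88e-05).

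G0s2, the inhibitor of Pnpla2, was at 12.67, 12.54, 12.71, 12.96 and 12.40 on chow and at 11.56, 11.95, 12.07, 11.70 and 12.21 on the high-fat diet. It fell by 0.76 ± 0.17 (adjusted p = 0.000959) with no overlap, so the lipase and its inhibitor were both lower. Abhd5, the activator of the same lipase, differed by -0.29 ± 0.17 (adjusted p = 0.232), with arrays of 8.38 to 8.92 on chow overlapping those of 8.26 to 8.72 on high fat. Pde3b, the insulin-regulated phosphodiesterase, was at 6.49, 6.46, 6.49, 6.60 and 6.13 on chow and at 6.03, 6.12, 5.92, 5.81 and 5.91 on the high-fat diet. Its highest high-fat array lay just under its lowest chow array, and it fell by 0.48 ± 0.12 (adjusted p = 0.00446).

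Lipe, the hormone-sensitive lipase, differed by 0.39 ± 0.20 (adjusted p = 0.172), with chow arrays from 9.62 to 10.61 and high-fat arrays from 10.46 to 10.91. Lpl differed by 0.11 ± 0.056 (adjusted p = 0.165), and its other probe sets by 0.30 and 0.30 (adjusted p = 0.127 and 0.152). Lpl sat at the top of the scale in fat, at percentile 99.98 of probe sets with group means of 14.21 to 14.36, while the brightest probe set of a fat array was at 14.6 to 14.9. A change in Lpl could thus be understated.

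Aqp7, the glycerol channel, was at 10.19, 10.26, 10.12, 10.09 and 9.94 on chow and at 9.61, 9.49, 9.57, 9.48 and 9.79 on the high-fat diet. These arrays did not overlap, yet the difference of -0.53 ± 0.25 did not pass with the spread shared over all 8 groups (adjusted p = 0.123). It passed when these groups alone were fitted (adjusted p = 0.00136). Its second probe set differed by 0.27 ± 0.21 (adjusted p = 0.387), in the other direction.

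Lipa, which digests lipid in lysosomes, was at 8.14, 8.27, 8.24, 7.59 and 7.54 on chow and at 10.73, 9.01, 9.54, 9.85 and 9.56 on the high-fat diet. All high-fat arrays lay above all chow arrays, and Lipa rose by 1.78 ± 0.25, 3.44-fold (adjusted p = 5.04e-06). Macrophage genes rose in the same arrays. Of 16 measured macrophage genes 12 rose and 0 fell with a median of 0.95, and their summed intensity was 11941 to 17241 on chow and 22773 to 54182 on the high-fat diet. In high-fat WT vehicle arrays the list means ran from 3.13 for Lyz2 to 12.75 for C1qa, with Adgre1 at 11.12. The summed intensity of 6 adipocyte genes was 74098 to 79355 on chow and 62105 to 78235 on the high-fat diet, with 1 gene higher and 3 lower. Of 7 brown and beige adipocyte genes 2 were higher and 1 lower, with a summed intensity of 323 to 385 on chow and 417 to 730 on the high-fat diet; Otop1 was 3.80 ± 0.43 higher, and the defining gene Ucp1 differed by 0.29 ± 0.12 (adjusted p = 0.0736). Of 7 mesothelial genes 0 were higher and 4 lower, with summed intensities of 4088 to 5958 and 2489 to 4367. The part of these cell types in the changes of Lipa and the other lipolysis genes was not tested.

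**Figure D3:**
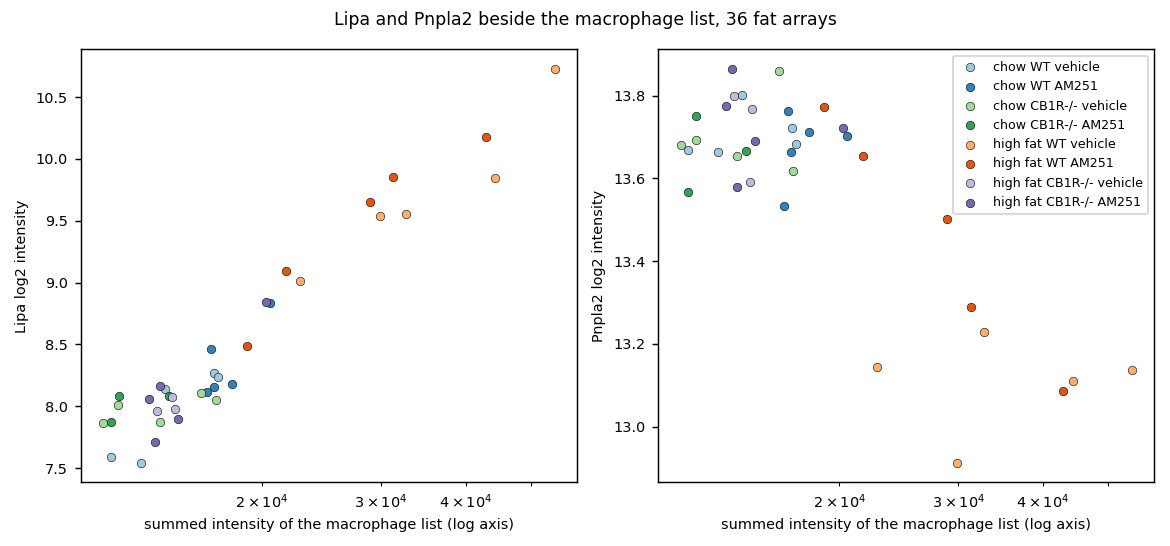
Lipa (left) and Pnpla2 (right) log2 intensity on 36 fat arrays against the summed intensity of 16 macrophage genes on a log axis, coloured by group. High-fat WT vehicle arrays, at 22773 to 54182 on the x axis, hold Lipa at 9.01 to 10.73 and Pnpla2 at 12.91 to 13.23; the points share groups, so no test is attached.

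All 5 calls held without the fat arrays with epididymis markers, at -0.61 for Pnpla2, -2.08 for Pnpla3, -0.77 for G0s2, -0.52 for Pde3b and 1.96 for Lipa.

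Fewer lipolysis genes were called between the diets in the other groups of fat. Under AM251, WT fat had a lower Pnpla3 on high fat (-1.50 ± 0.30, adjusted p = 0.00164) and a higher Lipa (1.10 ± 0.25, adjusted p = 0.00527), which makes 2 of 9 genes where 9.55% of all genes were called; 6 of 16 macrophage genes were higher there and 0 lower. Pnpla2 was at -0.21 ± 0.089 there (adjusted p = 0.135), and passed without AM251 array 37 (-0.29, adjusted p = 0.0247). In CB1R-/- fat under vehicle 0 of 9 genes passed, with 0.00522% of all genes called. At an unadjusted p under 0.05 limma gave 3 of the 9 and 1353 of all genes. The arrays of Pnpla3 (-0.98 ± 0.345), Pde3b (0.40 ± 0.14) and Aqp7 (0.76 ± 0.29) did not overlap between the diets. How many of all genes were without overlap was not counted, so nothing is drawn from this. In CB1R-/- fat under AM251 0 of 9 passed (0.81% of all genes), with 2 of the 9 and 2470 of all genes at an unadjusted limma p under 0.05. Abhd5 was at -0.62 ± 0.20 there without overlap (adjusted p = 0.129) and passed when these groups alone were fitted (0.0189) and with array weights (0.0488).

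On the high-fat diet, fat of CB1R-/- mice had more Pnpla2, Pde3b and Aqp7 and less Lipa mRNA than WT fat. Under vehicle, 3 of 9 genes were higher and 1 was lower in CB1R-/- than in WT fat, where 15.9% of all genes were called. The median difference was 0.52 for the 9 genes and -0.01 for all genes. This contrast shares its WT arrays with the diet contrast, so the 2 sets of values are not independent.

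Pnpla2 was at 13.77, 13.80 and 13.59 on high-fat CB1R-/- vehicle arrays, above all 5 WT arrays, and was higher by 0.61 ± 0.10 (1.53-fold, adjusted p = 0.0001). Lipa was at 7.98, 7.96 and 8.08, below all WT arrays, and lower by -1.73 ± 0.29 (adjusted p = 0.000105). The mean of Pnpla2 was 13.72 in these arrays and 13.71 in chow WT vehicle arrays, and that of Lipa was 8.01 and 7.95. The summed macrophage intensity was 13997 to 14869 on these CB1R-/- arrays, and 12 of 16 macrophage genes were lower than in WT. Of 7 mesothelial genes 5 were higher (summed intensity 4463 to 5671), and of 7 brown and beige adipocyte genes 1, Otop1, was lower (summed intensity 381 to 477). The part of these lists in the genotype differences was not tested.

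Pde3b was at 6.50, 6.60 and 6.40 and higher by 0.54 ± 0.14 (adjusted p = 0.00838), again without overlap. Aqp7 was at 10.88, 10.69 and 10.40, above every WT array, and higher by 1.07 ± 0.29 (2.09-fold, adjusted p = 0.00891). That call was lost without CB1R-/- array 42 (0.95, adjusted p = 0.0596) and on the second Aqp7 probe set (0.55, adjusted p = 0.125). G0s2 was at 12.27, 12.77 and 12.23, which did not overlap WT, and its 0.52 ± 0.19 missed the threshold (adjusted p = 0.0637). It passed without WT array 6 (0.60, adjusted p = 0.0410) or with dim genes left out (0.0408). Pnpla3 was at 0.86 ± 0.345 (adjusted p = 0.0913) and passed without WT array 3 (1.05, adjusted p = 0.0321) or without all 3 arrays with epididymis markers (1.05, adjusted p = 0.0334).

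The genotype difference depended on diet for 4 of these genes, where 6.34% of all genes were called. The CB1R-/- minus WT difference under vehicle was larger on high fat than on chow by 0.62 ± 0.14 for Pnpla2 (adjusted p = 0.00728), 0.88 ± 0.19 for Pde3b (0.00678) and 1.29 ± 0.38 for Aqp7 (0.0354), and was lower by -1.76 ± 0.39 for Lipa (0.00728). The Aqp7 value rested on many arrays: it lost its call without CB1R-/- high-fat array 42 or 43, WT high-fat array 1 or 5, CB1R-/- chow array 16, or WT chow array 1 or 2 (adjusted p of 0.0529 to 0.103). With the mean of the Aqp7 probe sets it was 0.89 (adjusted p = 0.0766), and on the second probe set 0.48 (adjusted p = 0.424). On chow under vehicle the genotypes differed in 0 of 9 genes (0.0575% of all genes; limma). Pde3b alone of the 9 had an unadjusted p under 0.05 there, at -0.34 ± 0.12 (adjusted p = 0.366), as had 1733 of all genes.

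**Figure D4:**
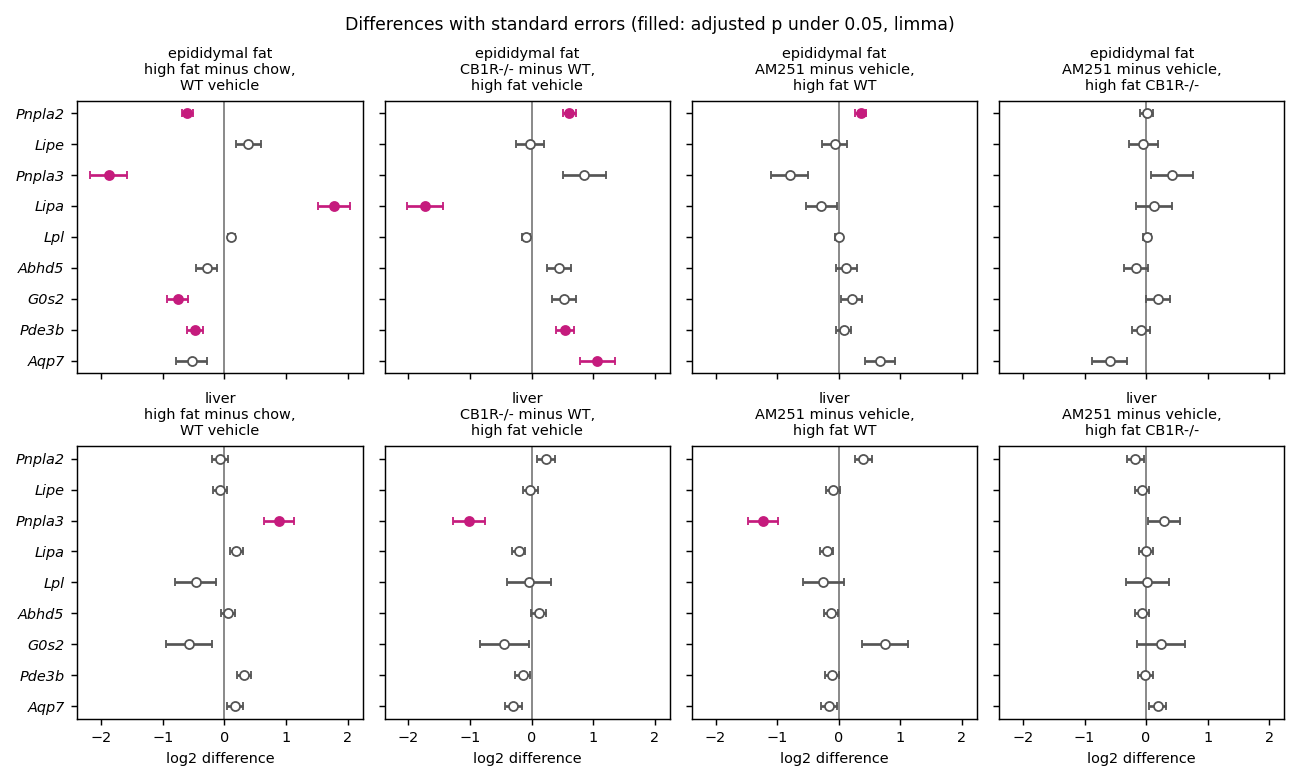
Log2 differences with standard errors for the 9 genes in fat (top) and liver (bottom): high fat minus chow in WT vehicle, CB1R-/- minus WT on high fat under vehicle, and AM251 minus vehicle on high fat in WT and in CB1R-/-; filled points passed the limma threshold. In fat Pnpla2 is at -0.60, 0.61 and 0.35 in the first panels, which share their high-fat WT vehicle arrays; in liver the filled points are all Pnpla3.

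Under AM251 the genotypes also differed in high-fat fat. Of 9 genes 4 were higher and 1 was lower in CB1R-/-, where 15.2% of all genes were called. Pnpla3 showed the largest of these differences: WT AM251 arrays were at 7.77, 8.15, 7.65, 7.25 and 7.66 and CB1R-/- AM251 arrays at 8.83, 10.46, 9.91, 9.78 and 9.87. The groups did not overlap, and the difference was 2.07 ± 0.30, 4.21-fold (adjusted p = 2.66e-05). Lipa was lower in CB1R-/- by -1.32 ± 0.25 (adjusted p = 0.000538), and 11 of 16 macrophage genes were lower with it.

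The other calls were smaller in size. Pnpla2 was higher by 0.27 ± 0.089 (adjusted p = 0.0395), G0s2 by 0.50 ± 0.17 (0.0377) and Pde3b by 0.39 ± 0.12 (0.0321). Pnpla2 lost its call when these groups alone were fitted (adjusted p = 0.189), with quantile normalization (0.0653), and without CB1R-/- array 45, 46, 48 or 49 or WT array 33, 34 or 36 (0.0515 to 0.200), with a difference of 0.17 without WT array 34. G0s2 lost it without CB1R-/- array 46, 48 or 49 or WT array 33, 34 or 36 (0.0531 to 0.136), and without the 3 arrays with epididymis markers (0.51, adjusted p = 0.0965). Pde3b lost it with only these groups (0.104) and without CB1R-/- array 48, 49 or 50 or WT array 34, the last of which took it to 0.24 (adjusted p = 0.175). The brighter Aqp7 probe set was at -0.19 ± 0.25 (adjusted p = 0.692) in this contrast, while the second one was lower in CB1R-/- fat (-0.60 ± 0.21, adjusted p = 0.0487).

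On chow under AM251 Pnpla3 was the 1 gene of 9 that passed, where 3.39% of all genes were called. CB1R-/- arrays were at 10.82, 10.56 and 10.38 and WT arrays at 9.45, 8.49, 9.68, 9.66 and 8.69, which did not overlap. The difference was 1.39 ± 0.345 (adjusted p = 0.0190), and the call was lost without CB1R-/- array 20 or 21 or WT array 11 or 14 (0.0502 to 0.107). Abhd5, at 0.57 ± 0.20 (adjusted p = 0.100), passed without WT array 12 (0.71, adjusted p = 0.0331).

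AM251 itself moved few lipolysis genes in fat over its 2 days. In high-fat WT fat 1 of 9 genes passed, where 1.11% of all genes were called. Pnpla2 rose by 0.35 ± 0.089 (1.28-fold, adjusted p = 0.0413), with AM251 arrays at 13.50, 13.09, 13.65, 13.29 and 13.77 against vehicle arrays of 12.91 to 13.23. The groups overlapped through array 34, and array 37 lay within the range of chow WT vehicle arrays. The call was lost without AM251 array 33, 35 or 37 or vehicle array 1, 3, 4 or 5 (adjusted p of 0.0527 to 0.232), when these groups alone were fitted (0.313), with median centring (0.0537) and without the 3 arrays with epididymis markers (0.32, adjusted p = 0.276).

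The summed macrophage intensity of these AM251 arrays was 19010 to 42858, inside the vehicle range at its upper end and below it at its lower end, with 0 of 16 macrophage genes higher and 1 lower. Aqp7 was at 10.35, 9.49, 10.67, 10.00 and 10.76 under AM251, above all vehicle arrays except on array 34. Its difference was 0.67 ± 0.25 (adjusted p = 0.204), and 0.86 without array 34 (adjusted p = 0.0491). The second Aqp7 probe set gave 0.72 ± 0.21 (adjusted p = 0.0840). Pnpla3 was at -0.80 ± 0.30 (adjusted p = 0.204), and at -0.44 (adjusted p = 0.827) without the 3 arrays with epididymis markers.

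In the other fat groups AM251 called 0 of 9 genes. These were chow WT (0% of all genes), high-fat CB1R-/- (0%) and chow CB1R-/- (0.0157%). With limma, 1, 1 and 0 of the 9 had an unadjusted p under 0.05, as had 2559, 712 and 1556 of all genes. Pnpla3 in chow WT fat was at -1.18 ± 0.30 (adjusted p = 0.166), and its AM251 arrays, 8.49 to 9.68, all lay below its vehicle arrays, 9.82 to 11.09. In CB1R-/- fat the Pnpla3 differences were 0.26 ± 0.345 on chow and 0.42 ± 0.345 on high fat.

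The tests of whether the AM251 effect differed by genotype or diet in fat called 0 of 9 genes. For WT minus CB1R-/- on high fat 0.407% of all genes were called, on chow 0.00522%, and for high fat minus chow in WT 0%. At an unadjusted p under 0.05 limma gave 3, 2 and 2 of the 9, and 2070, 2839 and 2001 of all genes. The largest values were 1.26 ± 0.38 for Aqp7 on high fat (adjusted p = 0.137) and -1.43 ± 0.46 for Pnpla3 on chow (adjusted p = 0.164). The Aqp7 value passed without WT AM251 array 34 (1.45, adjusted p = 0.0370) and with array weights (1.40, adjusted p = 0.0202).

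In liver the calls were all on Pnpla3, which was dim there, with group means of 4.62 to 5.86. On high-fat WT vehicle livers it was at 4.49, 6.23, 7.15, 6.11 and 5.33, and under AM251 at 4.60, 4.80, 4.56, 4.48 and 4.68. The vehicle livers were spread over a range of 2.66 while the AM251 livers lay close together, and vehicle array 1 was as low as they were. Pnpla3 fell by 1.24 ± 0.24 with AM251, to 0.424 of its vehicle level (adjusted p = 0.00181), as 1 of 9 genes where 1.91% of all genes were called. It missed the threshold when these groups alone were fitted (adjusted p = 0.106). Of 6 adipocyte genes 0 were higher and 1 was lower with AM251 in the same livers, the lipogenic gene Thrsp (-1.74 ± 0.33), and their summed intensity was 5423 to 15675 under vehicle and 1729 to 5149 under AM251. Adipoq was at 2.78 to 2.96 and 2.68 to 3.01. Of 7 brown and beige adipocyte genes 1 was lower, Cidea (-1.99 ± 0.49), with summed intensities of 689 to 1224 and 476 to 658. The part of these lists in the Pnpla3 change was not tested.

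**Figure D5:**
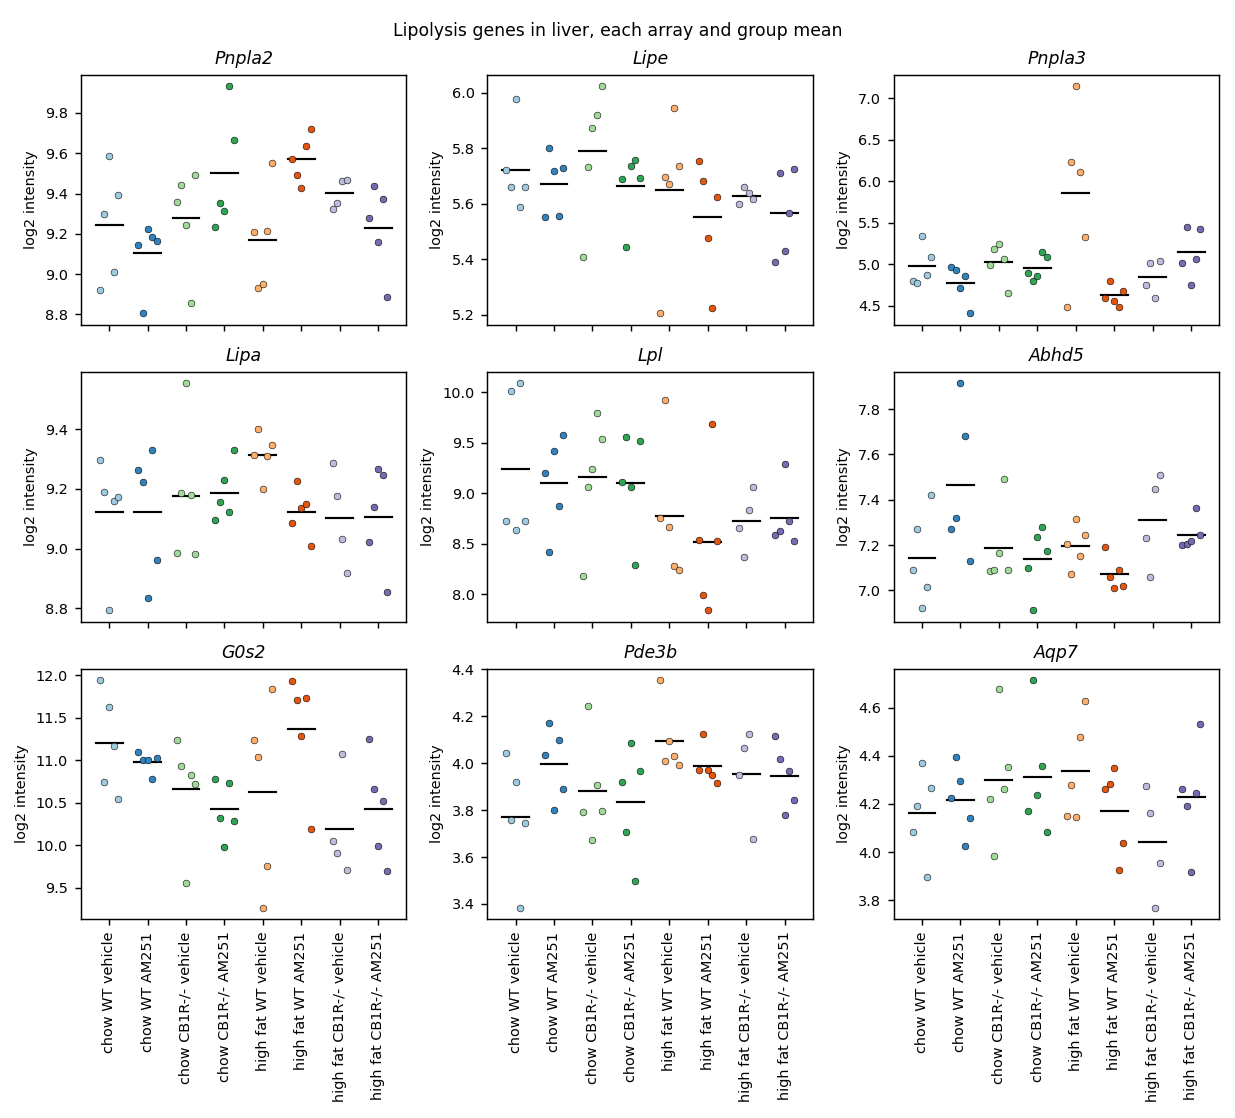
Log2 intensity of the 9 lipolysis genes on each of the 39 liver arrays (points) with group means (bars), in 8 groups of 4 or 5 arrays. Pnpla3 on high-fat WT vehicle arrays spreads from 4.49 to 7.15, and lies between 4.41 and 5.45 in all other groups.

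The other liver calls used the same 5 vehicle arrays. Pnpla3 was higher on high fat than on chow in WT vehicle livers by 0.89 ± 0.24 (adjusted p = 0.0473; 1 of 9 genes, 1.69% of all genes), where chow arrays were at 4.79, 4.78, 5.34, 4.87 and 5.08. It was lower in CB1R-/- than in WT livers on high fat under vehicle by -1.01 ± 0.26 (adjusted p = 0.0377; 1 of 9, 1.19% of all genes), with CB1R-/- arrays at 4.75, 5.01, 4.59 and 5.04. Both of these comparisons had overlapping arrays. The AM251 effect on high fat differed between the genotypes by -1.53 ± 0.35 (adjusted p = 0.0263; 1 of 9, 0.564% of all genes), with -1.24 in WT and 0.29 ± 0.26 in CB1R-/-.

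These calls depended on single arrays and on the shared spread. The diet call was lost without high-fat array 2, 3 or 4 or chow array 1, 2, 3, 4 or 5 (adjusted p of 0.0546 to 0.190), and without high-fat array 3 the difference was 0.57. The genotype call was lost without CB1R-/- array 40, 41, 42 or 44 or WT array 2, 3 or 4 (0.0549 to 0.182). The difference of AM251 effects was lost without CB1R-/- AM251 array 46 or 49, CB1R-/- vehicle array 40 or 42, or WT vehicle array 2 or 4 (0.0584 to 0.0956). When just the groups compared were fitted, the adjusted p was 0.328, 0.232 and 0.119. Without WT vehicle array 1, the low one, the AM251 effect also differed between the diets (-1.38, adjusted p = 0.00723, against -1.04 and 0.327 with it) and the genotype effect differed between the diets (-1.41, adjusted p = 0.00348, against -1.07 and 0.0782).

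The other 8 genes had no call in liver. Pnpla2 was at 9.57, 9.49, 9.43, 9.64 and 9.72 in high-fat WT livers under AM251 and at 9.21, 8.93, 8.95, 9.21 and 9.55 under vehicle, a difference of 0.40 ± 0.14 (adjusted p = 0.152). It passed without vehicle array 5 (0.49, adjusted p = 0.0462). Against chow WT livers under AM251, at 9.17, 9.14, 8.81, 9.22 and 9.19, it was at 0.47 ± 0.14 without overlap (adjusted p = 0.0648), and passed with array weights (0.0173), with quantile normalization (0.0485), with dim genes left out (0.0412) and with only these groups (0.0149). In the same contrast Abhd5 was at -0.39 ± 0.11 (adjusted p = 0.0599) and passed without chow array 8 (0.0171) or 10 (0.0430), with array weights (0.0307), with quantile normalization (0.0385) and with dim genes left out (0.0365). G0s2 was spread widely, with high-fat WT vehicle livers at 11.24, 11.03, 9.27, 9.75 and 11.85, and its AM251 difference of 0.75 ± 0.37 was not called (adjusted p = 0.449). Lipa lay between 8.79 and 9.56 on all 39 livers.

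The remaining liver comparisons called 0 of 9 genes. For AM251 these were high-fat CB1R-/- (0.0104% of all genes), chow WT (0%) and chow CB1R-/- (0.125%). For genotype they were chow vehicle (6.77%), chow AM251 (0.324%) and high-fat AM251 (2.3%). For diet they were CB1R-/- vehicle (17%), WT AM251 (1.96%) and CB1R-/- AM251 (2.64%). For differences of effects they were AM251 by genotype on chow (0%), AM251 by diet in WT (0.251%) and genotype by diet under vehicle (4.17%). In these limma fits between 0 and 4 of the 9 genes had an unadjusted p under 0.05. The 4 were for AM251 by diet in WT, where 1313 of all genes had one. Over all genes the other counts ran from 644 for AM251 in high-fat CB1R-/- to 6149 for diet in CB1R-/- vehicle, each with 0 of the 9. They included 2066 for AM251 in chow WT and 1437 for AM251 by genotype on chow. Pnpla3 was at 0.52 ± 0.24 in CB1R-/- against WT livers on high fat under AM251 (adjusted p = 0.402), and passed when those groups alone were fitted (0.0385).

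Ordered by mean, the 8 fat groups had at least 1 step larger than the pooled SD of its pair for Pnpla2, Pnpla3, Lipa, Abhd5 and G0s2, and none for Lipe, Lpl, Pde3b and Aqp7. For Pnpla2 high-fat WT vehicle was lowest at 13.11 and high-fat WT AM251 next at 13.46, a step larger than the pooled SD of the pair (0.21); the other 6 groups lay between 13.66 and 13.73, with every step inside its spread. For Lipa 6 groups lay between 7.95 and 8.35 with every step inside its spread, and then came high-fat WT AM251 at 9.45 and high-fat WT vehicle at 9.74, which did not separate from each other. For Pnpla3 the order ran from high-fat WT AM251 (7.70) through high-fat WT vehicle (8.50) and chow WT AM251 (9.19) to chow CB1R-/- AM251 (10.59), and the steps from the first of these to the third were larger than their spread, as was that of 0.56 from high-fat CB1R-/- AM251 to chow CB1R-/- vehicle. The first of these steps is the AM251 minus vehicle difference of -0.80, which was -0.44 without the 3 arrays with epididymis markers. For Abhd5 the step beyond its spread was 0.16, from high-fat WT AM251 to high-fat CB1R-/- AM251, and for G0s2 it was 0.29, from high-fat WT AM251 to chow WT AM251. The range of group means in fat was 2.89 for Pnpla3, 1.78 for Lipa and 1.07 for Aqp7, and only 0.14 for Lpl. In liver it was 1.24 for Pnpla3, 1.19 for G0s2 and 0.21 for Lipa.

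For the 4 largest of these ranges, the genes with the most similar profile were found by Pearson correlation over all arrays of the tissue, which share groups and so are not independent. Pnpla3 over 36 fat arrays was most like Sod2 (0.943), Prkaa2 (0.932) and Mlxipl (0.929). Lipa over the same arrays was most like P2rx4 (0.982), Nceh1 (0.982) and Trem2 (0.980), of which Trem2 is in the macrophage list. Pnpla3 over 39 livers was most like Pnpla5 (0.810), Acaca (0.800) and Chrna4 (0.781), and G0s2 over livers most like Pex11a (0.646), Cda (0.621) and Wwc1 (0.616).

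Upstream of the lipases, 16 genes of lipolytic signalling were measured, and in WT fat 0 rose and 7 fell on the high-fat diet (median -0.29, with 0.02 for all genes, of which 24.5% were called). Those that fell include genes known to restrain lipolysis or to carry the insulin signal as well as kinase subunits: the antilipolytic lactate receptor Hcar1 (-1.31 ± 0.24, adjusted p = 0.000105), the inhibitory G protein Gnai1 (-0.64 ± 0.11), the kinase subunit Prkacb (-0.39 ± 0.10) and the insulin receptor substrate Irs2 (-0.69 ± 0.19). In CB1R-/- against WT fat on high fat under vehicle 7 were higher and 0 lower (15.9% of all genes were called), led by Hcar1 (1.83 ± 0.28, adjusted p = 3.31e-05), Gnai1 (0.69 ± 0.12), Hcar2 (0.97 ± 0.23) and the kinase Akt2 (0.47 ± 0.15). Under AM251 in high-fat WT fat Hcar1 rose by 1.01 ± 0.24 (adjusted p = 0.0288) and the prostaglandin receptor Ptger3 fell by 0.77 ± 0.15 (adjusted p = 0.00598). In that comparison 1.11% of all genes were called, and these calls were not refitted without the arrays with epididymis markers.

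Of 8 measured transcription factors known to act on lipolysis genes, 0 rose and 6 fell on the high-fat diet in WT fat (median -0.54, 24.5% of all genes called), among them Mlxipl, the carbohydrate-response factor ChREBP (-1.24 ± 0.19, adjusted p = 1.51e-05), Ppara (-0.78 ± 0.12), Cebpa (-0.57 ± 0.10) and Foxo1 (-0.94 ± 0.19). In CB1R-/- against WT fat on high fat under vehicle 3 were higher and 0 lower (15.9% of all genes): Ppara (0.81 ± 0.14), Cebpa (0.40 ± 0.12) and Foxo1 (0.72 ± 0.22). With AM251 in high-fat WT fat 0 of the 8 passed in limma, where 1.11% of all genes were called.

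Of 11 measured lysosomal genes, 8 rose and 1 fell on the high-fat diet in WT fat (median 0.51, 24.5% of all genes called), led by the cathepsin Ctsl (1.54 ± 0.19, adjusted p = 1.13e-06), the sterol carrier Npc2 (0.93 ± 0.14), the hexosaminidase Hexa (0.98 ± 0.17) and Ctsd (0.42 ± 0.087). In CB1R-/- against WT fat on high fat 0 were higher and 6 lower (15.9% of all genes), including Ctsl (-1.15 ± 0.22) and Npc2 (-0.81 ± 0.16). Macrophage genes moved with them: 12 of 16 were higher on the high-fat diet and 12 of 16 lower in CB1R-/- fat, with a mean log2 intensity of the list of 8.29 on chow, 9.49 on high fat and 8.20 in high-fat CB1R-/- fat. Their part in the lysosomal values was not tested.

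Droplet proteins and other hydrolases were mixed. Of 13 measured, 2 rose and 3 fell with the diet in WT fat, where 24.5% of all genes were called: the coat protein Plin2 rose by 1.25 ± 0.19 and the Pnpla2 inhibitor Hilpda by 1.16 ± 0.23, while the carboxylesterases Ces1f (-1.25 ± 0.24) and Ces1d (-0.72 ± 0.16) were among those that fell. In CB1R-/- against WT fat on high fat 4 rose, including Ces1f (1.83 ± 0.28), Ces1d (0.92 ± 0.18) and the droplet coat Plin1 (0.61 ± 0.14), and 2 fell, including Plin2 (-1.26 ± 0.22), where 15.9% of all genes were called. AM251 raised Plin5 in high-fat WT fat (1.11 ± 0.21, adjusted p = 0.00598), where 1.11% of all genes were called. The Plin5 call was not refitted without the arrays with epididymis markers. In high-fat WT liver AM251 raised the monoglyceride hydrolase Abhd6 (0.97 ± 0.15, adjusted p = 7.37e-05), where 1.91% of all genes were called.

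Among 6 genes of glycerol handling Gpd2 (-1.72 ± 0.24) and Pck1 (-1.09 ± 0.25), which makes glycerol backbone from pyruvate in fat, fell with the diet in WT fat. The share called there over all genes was 24.5%. Pck1 was higher in CB1R-/- fat on high fat (2.03 ± 0.29, adjusted p = 2.15e-05), with Gpd2 (1.31 ± 0.28), where 15.9% of all genes were called. Pck1 also rose with AM251 in high-fat WT fat (1.70 ± 0.25, adjusted p = 0.000891), where 1.11% of all genes were called. Of 12 genes that control lipoprotein lipase 3 rose and 1 fell with the diet, a share near the 24.5% of all genes, among them the Lpl cofactor Apoc2 (0.47 ± 0.088) and the maturation factor Lmf1 (-0.48 ± 0.11). AM251 raised the Lpl anchor Gpihbp1 (0.60 ± 0.12, adjusted p = 0.0115) and lowered the Lpl inhibitor Angptl8 (-1.56 ± 0.39, adjusted p = 0.0408) in high-fat WT fat. In that comparison 1.11% of all genes were called, and Lpl itself was at -0.00297 ± 0.056 (adjusted p = 0.990). The Gpihbp1 and Angptl8 calls were not refitted without the arrays with epididymis markers. Gpihbp1 is a gene of capillary endothelium. Of 10 endothelial markers 3 rose and 0 fell in the same comparison, where 1.11% of all genes were called. Their summed intensity was 7913 to 10909 under vehicle and 9304 to 15020 under AM251. The part of these markers in the Gpihbp1 value was not tested.

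Some genes known to follow feeding and fasting changed with AM251 in each tissue of high-fat WT mice. Of 8 measured, 0 rose and 3 fell with AM251 in high-fat WT liver, where 1.91% of all genes were called: Fasn (-3.32 ± 0.34, adjusted p = 3.84e-08), Scd1 (-2.08 ± 0.25) and Pnpla5 (-0.83 ± 0.16). Fasn and Scd1 make and desaturate fatty acids. In high-fat WT fat, where 1.11% of all genes were called, 1 of the 8 rose, the pyruvate dehydrogenase kinase Pdk4 (1.64 ± 0.31, adjusted p = 0.00611). Food intake of these mice was not used here, and its part in these values was not tested.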

How the data were processed

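RNA of 39 livers and 36 epididymal fat samples was read on one-colour arrays. The authors deposited linear intensity values made by RMA, per the submitters' processing notes; the version and any batch handling are not given in the sources used here. Intensities were taken to log2. Of 38385 probe sets, 24478 named 1 gene and gave 19147 genes, each by its brightest probe set on average in the tissue (in both tissues together for comparisons between them). Each group was given 1 mean in a linear model (limma 3.58.1, R 4.3.3) over all 8 groups of a tissue, or all 16 for comparisons between tissues, with Benjamini-Hochberg adjustment over all genes within each of 36 contrasts and a threshold of 0.05. The number of arrays limits the precision. Array medians were 25.8 to 28.7 in liver and 44.3 to 48.0 in fat, so comparisons between tissues are also given with each array centred on its median.

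The members and gene lists were chosen with earlier results of these data known, so counts over them are descriptions. All 9 members are named; other genes are named as the called list members with the smallest adjusted p, up to 4 a list, and as the 3 genes most like the members with the largest ranges. Of 191 list entries 162 were measured; the others were not analysed here. The fit was tested on simulated data. Alternatives changed normalization, centring, the offset, the filter on dim genes, the probe set rule, the variance prior, array weights, the groups fitted, blocks and single arrays. Marker lists of hepatocytes, adipocytes, macrophages, brown and beige adipocytes, endothelium, mesothelium and epididymis were read beside the results.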

Additional observations from a re-analysis of the deposited data

Results flagged for a closer look

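In 126 groups of a gene, 9 arrays stood apart from the rest of their group by Dixon's test; chance alone picks about 1 in 20 groups. In liver these were Pnpla2 on chow WT AM251 array 11 (8.81), Lipe on chow CB1R-/- AM251 array 21 (5.44), Lipa on chow WT vehicle array 3 (8.79), Lpl on high-fat CB1R-/- AM251 array 47 (9.29), Abhd5 on chow CB1R-/- vehicle array 18 (7.49), and Pde3b on high-fat WT vehicle array 1 (4.35) and high-fat WT AM251 array 35 (4.13). In fat they were Pde3b on high-fat WT AM251 array 34 (5.47) and on chow WT vehicle array 5 (6.13). Array 34 was also the array on which the Aqp7 values under AM251 turned.

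Effects that differed between groups by a test of the difference itself were, in fat, those of genotype between the diets: Pnpla2 (0.62 ± 0.14), Lipa (-1.76 ± 0.39), Pde3b (0.88 ± 0.19) and Aqp7 (1.29 ± 0.38). In liver the AM251 effect on Pnpla3 on high fat differed between WT and CB1R-/- mice by -1.53 ± 0.35. The diet effect in WT vehicle mice differed between fat and liver for Pnpla2 (-0.53 ± 0.17), Pnpla3 (-2.77 ± 0.40), Lipa (1.59 ± 0.27) and Pde3b (-0.80 ± 0.17).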

How the results depend on the processing

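Of 48 called values of lipolysis genes, 32 lost their call under no alternative in which their gene was fitted. These include all 5 diet calls in WT vehicle fat. With dim genes left out, Pde3b was not in the fits of fat or of both tissues, so its calls there could not be judged. That filter gave 6 calls by diet, 9 by genotype and 3 differences of effects in fat, and 19 calls between tissues. Sign changes came with array centring for Lipa between tissues on high fat (-0.30) and with the dim Lipe probe set between tissues (-0.13 on chow, -0.0751 on high fat). The calls by diet in liver, 1 in all, became 3 with array weights or quantile normalization, 2 with dim genes left out and 0 with a trended, robust variance prior. The 1 genotype call in liver became 0 with dim genes left out or with that prior. The 1 call for a difference of effects in liver and the 1 AM251 call in liver became 0 with dim genes left out, which removes Pnpla3 there, or with only the compared groups. The 1 AM251 call in fat became 0 with arrays centred, with only the compared groups, and without the 3 arrays with epididymis markers, an alternative chosen after seeing the data. Leaving out 1 array at a time gave 20 to 23 calls between tissues (22 with all), 7 to 8 by diet in fat (7) and 0 to 2 in liver (1), 7 to 11 by genotype in fat (10) and 0 to 1 in liver (1), 3 to 5 differences of effects in fat (4) and 0 to 3 in liver (1), and 0 to 2 under AM251 in fat (1) and 1 to 2 in liver (1). Except where stated, the cause was not tested.

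Sample numbers did not pair the diets in WT vehicle mice: same-numbered samples correlated at -0.167 to 0.217 in liver and -0.128 to 0.057 in fat. The number was tried as a replicate block in a limma fit of the WT vehicle diet groups alone. In liver the diet calls were then 0 (Pnpla3 at 0.89, adjusted p = 0.167). In fat Pnpla2, Pnpla3, Lipa, G0s2 and Pde3b kept their calls, and Aqp7 was added (-0.55, adjusted p = 0.0176). The compared groups fitted without a block also lost liver Pnpla3 (limma adjusted p = 0.328) and added Aqp7 in fat (0.00136). The part of the block in these changes thus cannot be told apart. Liver and fat of one number correlated at -0.126 to 0.203, and a random replicate block left 22 calls between tissues. Dim signal limits Pnpla3, Pde3b and Aqp7 in liver, and bright signal limits Lpl and Pnpla2 in fat.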
